A study of Homo sapiens with 12 samples.

Results

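The expression profiles of BxPC-3 and AsPC-1, a pair of established human pancreatic adenocarcinoma cell lines, were compared as the cells stood without treatment. All arrays of the groups labelled as BxPC-3 control and AsPC-1 control were used, 3 for each line, which makes 6 of the 12 arrays of the series. BxPC-3 is labelled as a primary tumour line, and AsPC-1 was derived from ascites. Both lines came from a public repository and were grown in RPMI-1640 medium with foetal calf serum. They were then kept overnight in 2.5% serum before total RNA was taken, in both lines alike. The BxPC-3 arrays are labelled passages 7, 9 and 11 and the AsPC-1 arrays passages 8, 10 and 12. No agent was added, and the labels used here do not say whether the controls received the solvent. The other 6 arrays are cultures of the same passages exposed to 1 µM PMA, a phorbol ester that activates protein kinase C, for 4 h. Each kind of origin is represented by 1 line, so a difference between primary and metastatic tumours and a difference between these particular lines cannot be told apart. The labels call the arrays biological replicates from separate passages of a line. The errors given rest on the spread between passages, pooled over both lines. The fitted model draws them towards the spread of genes of like signal.

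RNA had been hybridised to a human whole-genome 3′ expression array, and the values are the deposited MAS5 signals, which are linear intensities. Differences are given as BxPC-3 minus AsPC-1 on the scale of log2(signal + 3), with their standard error (SE). A difference of 1 is a fold of 2 on that scale, and the added constant makes folds of dim genes smaller than they would be without it. Each gene was read by 1 probe set, the one with the highest mean over the series. A gene was called where the adjusted p of limma, a linear model fitted across all genes, was under 0.05 after Benjamini-Hochberg adjustment. A signal near or below 9.52, the highest of the arrays' 40th percentiles, was treated as background. Signals of different genes come from different probes and are not set against each other. The RNA is from whole cultures, so fewer expressing cells and less RNA per cell cannot be told apart.

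Pancreatic ductal adenocarcinoma is a carcinoma of duct-like epithelium. Its cells commonly keep simple epithelial keratins and cell adhesion proteins, and many also switch on genes of stomach or intestine, such as trefoil factors, gut-type mucins and brush-border proteins. Others express keratins and cornified-envelope proteins of stratified squamous epithelium, which are controlled in skin by factors such as TP63 and AP-1. Loss of the cell cycle inhibitor CDKN2A and of SMAD4, the shared mediator of TGF-beta and BMP signals, is common in this tumour.

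The arrays had been scaled to the same trimmed mean. The ratio of the 3′ to the 5′ control probe set of ACTB is a sign of RNA integrity and of how far the labelling reached. It was 2.56, 2.95 and 4.14 on the untreated BxPC-3 arrays and 2.22, 2.27 and 2.24 on the untreated AsPC-1 arrays. Among the untreated arrays it thus moved with the line. On the PMA arrays the lines overlapped, at 1.845, 1.994 and 2.019 in BxPC-3 and 2.116, 2.316 and 1.794 in AsPC-1. The same ratio for GAPDH lay between 0.987 and 1.12 over the 12 arrays, and the part of RNA quality in the differences below was not tested. The AsPC-1 array of passage 8 stood apart from the others of its line. On it, 1395 genes were at least 2-fold above or below both of the other AsPC-1 arrays. For the remaining untreated arrays that number lay between 230 and 450. Counts of called list members that moved by over 1.5 times without it are given both ways, beside the 50.1% of all genes that were called without it. Duct markers were present in both lines: in each line, 7 of the 9 that the array measures were above 100 on every array. SOX9 on the BxPC-3 side, KRT7 on the AsPC-1 side and CFTR in both were the exceptions. KRT19, a keratin of duct cells, read 3970.1, 4774 and 3639 in BxPC-3 and 6312, 6185 and 5458 in AsPC-1. None of the measured markers of acinar, endocrine, endothelial or leukocyte cells had a mean above 100 in either line. Among 7 fibroblast markers, LUM, a small leucine-rich proteoglycan, was the exception, at 1484, 3163 and 2787 in AsPC-1 and 44.6, 70.8 and 41.5 in BxPC-3. COL1A1, the chain of the main fibroblast collagen, lay the other way, at 77.4, 109 and 105 in BxPC-3 and 0.235, 1.76 and 2.40 in AsPC-1.

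The lines differed in a large part of their transcriptome. Of 14512 genes tested, 5935 were called, which is 40.9% of them, with 3114 higher in BxPC-3 (21.5%) and 2821 lower (19.4%). The signals of the lines did not overlap in 7879 genes, or 54.3%. The median difference over all genes was -0.05, and the median absolute difference was 0.57. Among called genes, 249 were at least 16-fold higher and 152 at least 16-fold lower in BxPC-3. In 98 genes every BxPC-3 array was above 100 while every AsPC-1 array was under its own 40th percentile. The reverse held for 46 genes. Without the AsPC-1 array of passage 8 the number of called genes was 7269. Of 12 tested genes of a list of common housekeeping genes, 5 were called, or 41.7%, with 2 higher and 3 lower in BxPC-3. There were 1 higher and 6 lower without the AsPC-1 array of passage 8, or 58.3%, beside 50.1% of all genes. Arrays of different lines correlated with r from 0.792 to 0.821 over the 14512 tested genes. Within a line, r lay between 0.976 and 0.981 for BxPC-3 and between 0.948 and 0.976 for AsPC-1.

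**Figure D1:**
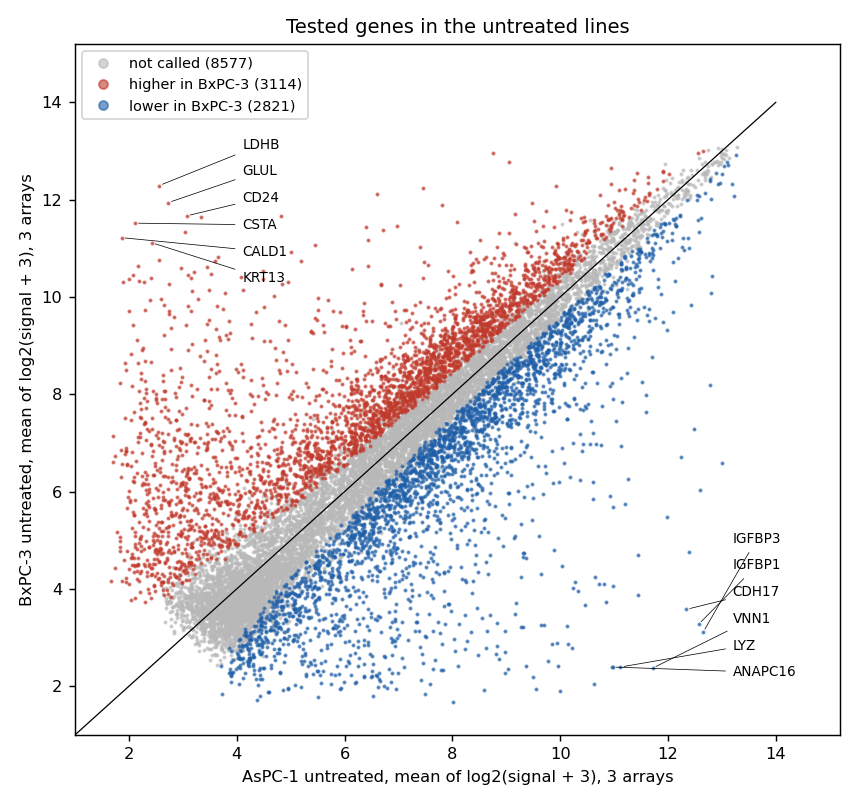
Mean signal of each of the 14512 tested genes in the 3 untreated BxPC-3 arrays (vertical) against the 3 untreated AsPC-1 arrays (horizontal), both on log2(signal + 3). Called genes are coloured by direction, with 3114 above and 2821 below the diagonal, and the labelled genes are those with the largest differences.

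Among the largest differences in favour of BxPC-3 were LDHB, the heart-type subunit of lactate dehydrogenase, and CSTA, a cysteine protease inhibitor of the cornified envelope. Where a line was at background the size of a difference depends on the added constant, so the order of the leading genes in either direction is not reliable. LDHB read 4437, 5832 and 4829 in BxPC-3 and 0.660, 2.64 and 6.90 in AsPC-1, a difference of 9.73 ± 0.33 (SE, adjusted p = 3.5e-07). CALD1, an actin-binding regulator of contraction, read 2223, 2723 and 2230.2 in BxPC-3 and 0.535, 0.276 and 1.15 in AsPC-1, a difference of 9.36 ± 0.19 (SE, adjusted p = 7.55e-08). GLUL, which makes glutamine from glutamate and ammonia, read 3585, 3897 and 4317 in BxPC-3 and 4.95, 1.09 and 5.92 in AsPC-1, a difference of 9.21 ± 0.29 (SE, adjusted p = 2.7e-07). For these genes all BxPC-3 arrays lay above all AsPC-1 arrays, where the signal was at or near background. CD24, a surface glycoprotein used as an epithelial and tumour marker, also belonged to this set, with 2821, 3634 and 3345 in BxPC-3 and 1.99, 10.8 and 5.56 in AsPC-1, a difference of 8.60 ± 0.34 (SE, adjusted p = 6.73e-07). PTGS2, the inducible cyclooxygenase, read 1261, 1234 and 1298 in BxPC-3 and 4.32, 0.785 and 1.08 in AsPC-1, a difference of 8.03 ± 0.27 (SE, adjusted p = 3.4e-07). EFEMP1, a matrix glycoprotein, and NEDD9, a docking protein of focal adhesions, followed with differences of 8.37 ± 0.18 and 8.14 ± 0.24 (SE). WDR72 and C16orf54 completed the 15 largest together with keratins, a small proline-rich protein and a MAGE gene described below, at 8.21 ± 0.45 and 8.43 ± 0.23 (SE).

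In the other direction, IGFBP3, the main carrier of insulin-like growth factors in serum, was among the largest differences. It read 6675, 6298 and 6326 in AsPC-1 and 1.57, 10.5 and 7.33 in BxPC-3, a difference of -9.54 ± 0.35 (SE, adjusted p = 5.59e-07). IGFBP1, a related binding protein best known from liver, read 6422, 5866 and 5941 in AsPC-1 and 10.5, 3.69 and 6.9995 in BxPC-3, a difference of -9.29 ± 0.25 (SE, adjusted p = 1.68e-07). VNN1, the pantetheinase of the cell surface, read 3578, 3281 and 3231 in AsPC-1 and 2.86, 0.582 and 3.59 in BxPC-3, a difference of -9.34 ± 0.24 (SE, adjusted p = 1.67e-07). In each of them AsPC-1 alone had signal clearly above background. VCAN, a large matrix proteoglycan, and TOX3, an HMG-box protein, had differences of -7.63 ± 0.29 and -7.61 ± 0.25 (SE). Where a gene had further probe sets they were read too. Of 98 called genes named here that had another probe set above the filter, all other such probe sets had the same sign in 88, and in 10 at least 1 did not. All further probe sets of LDHB, GLUL, CD24, IGFBP3 and VCAN pointed the same way as the one used, while 1 of the 3 others of NEDD9, a dim one, differed by -0.11.

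**Figure D2:**
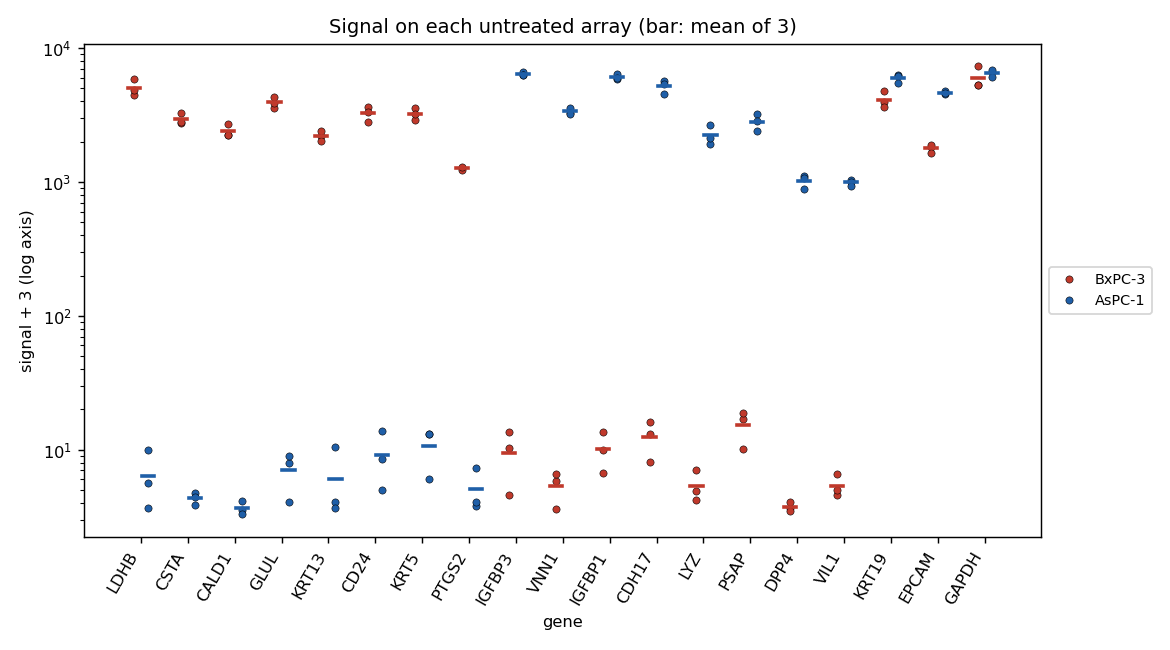
Signal on each untreated array for genes with the largest differences and for KRT19, EPCAM and GAPDH, on a logarithmic axis of signal + 3. Each point is 1 array, with 3 per line, and the bars are the means. For the genes with the largest differences the points of 1 line lie near the lower end of the axis, while the last 3 genes are bright in both.

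Genes of basal and squamous epithelium made up one of the clearest groups on the BxPC-3 side. Of 39 listed genes, 34 passed the filter on low signal, and 23 were higher and 3 lower in BxPC-3, with a median difference of 3.35 against -0.05 over all genes. The called share of the list was 76.5%, beside 40.9% of all genes. The filter also keeps a gene that is present in only 1 line, here as for every list. KRT5, the basal keratin of stratified epithelium, read 2914, 3567 and 3204 in BxPC-3 and 2.99, 10.1 and 9.9999 in AsPC-1, a difference of 8.32 ± 0.30 (SE, adjusted p = 5.02e-07). KRT13, a keratin of mucosal squamous layers, read 2219, 2019 and 2420.4 in BxPC-3 and 7.44, 1.04 and 0.665 in AsPC-1, a difference of 8.69 ± 0.37 (SE, adjusted p = 1.08e-06). CSTA read 2752, 2783 and 3279 in BxPC-3 and 1.78, 1.41 and 0.828 in AsPC-1, a difference of 9.41 ± 0.18 (SE, adjusted p = 7.55e-08). All BxPC-3 arrays were far above all AsPC-1 arrays for these genes. SPRR1A, a precursor of the cornified envelope, was 8.37 ± 0.20 (SE) apart. KRT4, the partner of KRT13 in mucosal epithelium, was not listed and differed by 8.46 ± 0.24 (SE). The members that were lower in BxPC-3 were the kallikrein proteases KLK6, KLK7 and KLK10, with differences of -3.61, -2.01 and -1.60. SFN, an epithelial 14-3-3 protein, was not called, at 6333, 7918 and 6166 in BxPC-3 and 2329, 5065 and 5133 in AsPC-1. TP63 did not pass the filter.

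The start sites of the squamous genes called higher in BxPC-3 were searched because members of this group are known AP-1 targets in skin. The 7-letter AP-1 motif TGANTCA was sought on both strands of the RefSeq promoters (GRCh38.p14), from 250 bases before to 50 after the start. It stood in 6 of the 18 genes of this list that were called higher in BxPC-3 and had a promoter sequence (33.3%), namely IVL, S100A2, SERPINB13, SPRR1A, SPRR1B and SPRR3. The share among all 11620 tested genes with such a sequence was 5.03%. AP-1 was not the only motif with a larger share. The TATA box TATAAA stood in 5 of the 18 (27.8%), beside 6.98% of all genes. The GATA motif AGATAA and the HNF4 core CAAAGTC stood in 0. Known targets were in the list beforehand, and SPRR1A, SPRR1B and SPRR3 are of the same family, so the share is only a description. The windows of SPRR1A (chr1:152983831-152984130, plus strand) and SPRR3 (chr1:153001499-153001798, plus strand) are shown with the AP-1 motif in capitals, 108 and 170 bases before the start.
SPRR1A: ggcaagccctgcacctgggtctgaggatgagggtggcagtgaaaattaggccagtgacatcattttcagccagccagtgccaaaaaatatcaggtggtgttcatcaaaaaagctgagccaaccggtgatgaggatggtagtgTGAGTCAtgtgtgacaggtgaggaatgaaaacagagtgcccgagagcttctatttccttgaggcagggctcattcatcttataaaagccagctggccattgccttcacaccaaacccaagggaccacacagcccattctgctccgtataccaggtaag
SPRR3: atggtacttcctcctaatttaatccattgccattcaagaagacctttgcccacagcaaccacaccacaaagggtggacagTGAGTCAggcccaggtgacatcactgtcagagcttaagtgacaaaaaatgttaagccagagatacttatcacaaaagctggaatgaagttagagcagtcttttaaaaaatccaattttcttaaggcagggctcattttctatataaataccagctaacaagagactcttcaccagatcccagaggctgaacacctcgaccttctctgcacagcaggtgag
SPRR3, the small proline-rich protein of mucosal squamous cells, read 1512, 889 and 1400.5 in BxPC-3 and 12.9, 44.7 and 28.6 in AsPC-1, a difference of 5.43 ± 0.39 (SE, adjusted p = 1.56e-05). The family has close copies, and probe sets of neighbours in it may share signal. Among genes at least 16-fold higher in BxPC-3 the AP-1 motif stood in 11.8% of promoters, and among those at least 16-fold lower in 9.73%. Its share was thus above that of all genes in both directions. The letters are a match and do not show that a factor binds there.

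Genes of gastric and intestinal differentiation lay mainly on the AsPC-1 side. Of 52 listed genes, 41 passed the filter, and 24 were lower and 6 higher in BxPC-3, with a median difference of -2.64. The called share was 73.2%, beside 40.9% of all genes, of which 19.4% were lower. CDH17, the intestinal cadherin, read 4580.4, 5664 and 5367 in AsPC-1 and 10.1, 12.96 and 5.13 in BxPC-3, a difference of -8.76 ± 0.25 (SE, adjusted p = 1.91e-07). LYZ, lysozyme of Paneth and gastric gland cells, read 2666, 1923 and 2130.4 in AsPC-1 and 1.19, 1.92 and 4.03 in BxPC-3, a difference of -8.73 ± 0.24 (SE, adjusted p = 1.91e-07). LGALS2, a galectin of the gut epithelium, read 783, 2262 and 2202 in AsPC-1 and 1.40, 1.35 and 0.680 in BxPC-3, a difference of -8.58 ± 0.39 (SE, adjusted p = 1.52e-06). The lines did not overlap for any of these, and the AsPC-1 array of passage 8 held the lowest of the AsPC-1 signals of LGALS2. DPP4, VIL1 and ANXA13, a peptidase, an actin bundler and an annexin of the enterocyte, were -8.10 ± 0.20, -7.54 ± 0.21 and -7.43 ± 0.53 (SE) apart. The 6 members higher in BxPC-3 were ANXA10, GKN1, VSIG1, VSIG2, CTSE and TFF1, with differences from 1.43 to 5.50. GKN1 and TFF1 are known as products of gastric surface cells. ANXA10, an annexin of gastric mucosa, read 4205, 5192 and 3920.2 in BxPC-3 and 42.6, 209 and 93.6 in AsPC-1. AGR2, a disulfide isomerase of mucus-producing cells, was bright in both lines, at 2296, 2564 and 2956 in BxPC-3 and 793, 2679 and 1932 in AsPC-1, and was not called.

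Further members of the list had signal at background in BxPC-3. TM4SF4, a tetraspan membrane protein of intestine and liver, read 1323, 2321 and 2556 in AsPC-1 and 2.12, 3.51 and 1.38 in BxPC-3, a difference of -8.56 ± 0.29 (SE, adjusted p = 3.36e-07). CLRN3, a small membrane protein, read 701, 826 and 631 in AsPC-1 and 3.84, 1.20 and 0.344 in BxPC-3, a difference of -7.29 ± 0.29 (SE, adjusted p = 7.7e-07). Both were present in AsPC-1 alone. HNF4A, a nuclear receptor known to control genes of gut and liver, did not pass the filter, so its level could not be compared. Promoters of the genes at least 16-fold apart held fewer CpG pairs than usual, with medians of 18 in those higher and 13 in those lower in BxPC-3, against 25 over all genes.

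**Figure D3:**
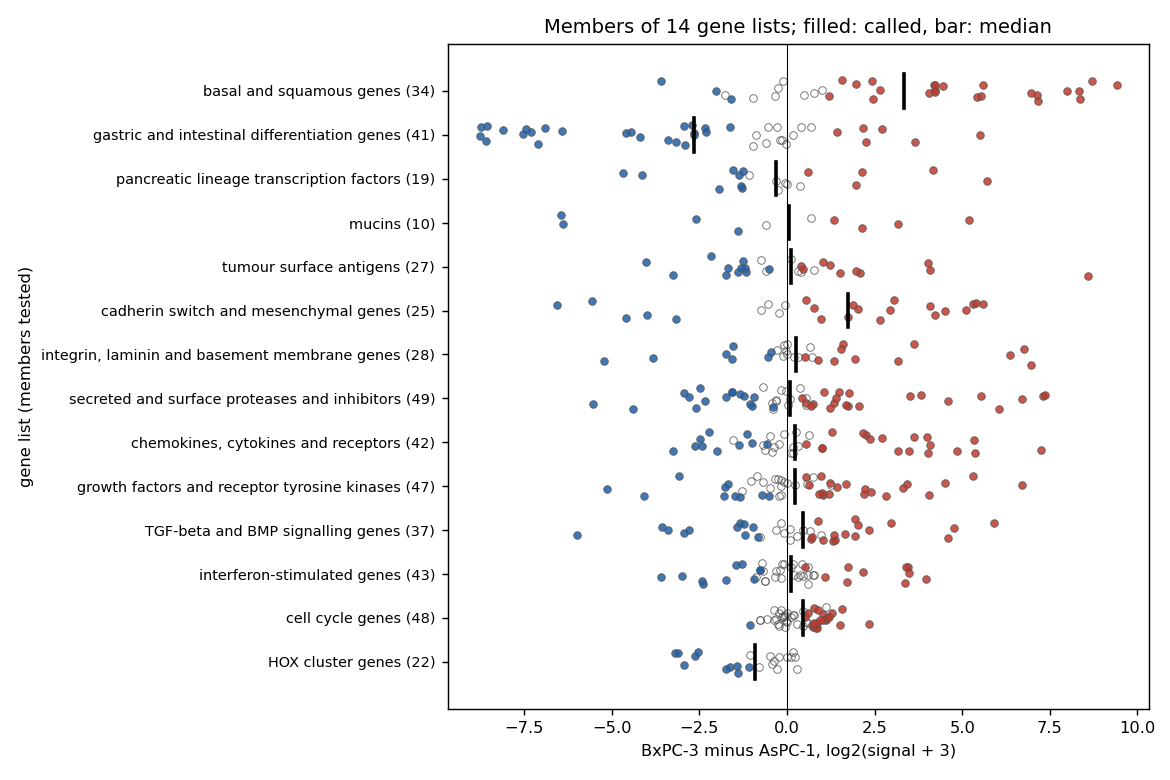
Difference between the lines (BxPC-3 minus AsPC-1, log2 of signal + 3) for every tested member of 14 gene lists. Each point is 1 gene, filled where it was called, and the vertical bar is the list median; the basal and squamous list has its median at 3.35 and the gastric and intestinal list at -2.64.

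Keratins of simple epithelium had signal in both lines, at different levels. KRT8, the partner keratin of simple epithelia, read 758, 891 and 812 in BxPC-3 and 3668, 5119 and 4438 in AsPC-1, a difference of -2.41 ± 0.15 (SE, adjusted p = 6.51e-06). KRT7, a duct keratin, lay the other way, at 2764, 2991 and 2298 in BxPC-3 and 224, 64.1 and 71.6 in AsPC-1, a difference of 4.68 ± 0.41 (SE, adjusted p = 5.02e-05). The name of a probe set carries a mark where its probes match several transcripts. A dimmer KRT7 probe set without this mark for shared sequence had means of 51.5 in BxPC-3 and 46.1 in AsPC-1 and was not called. EPCAM, an epithelial adhesion molecule, was lower in BxPC-3, at 1826, 1889.8 and 1644 against 4548, 4790.2 and 4627. All 6 tested members of this list were called, 2 higher and 4 lower in BxPC-3.

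Lineage transcription factors were split between the lines. Of 19 that passed the filter among 28 listed, 5 were higher and 8 lower in BxPC-3, a called share of 68.4%. SOX2, a factor of foregut squamous epithelium and of stem cells, read 337, 344 and 400.1 in BxPC-3 and 4.66, 4.80 and 2.46 in AsPC-1, a difference of 5.72 ± 0.23 (SE, adjusted p = 8.5e-07). FOXA2, a forkhead factor of endoderm, read 60.4, 95.3 and 64.1 in BxPC-3 and 1.02, 1.17 and 1.41 in AsPC-1, a difference of 4.15 ± 0.31 (SE, adjusted p = 1.86e-05). NR5A2, a nuclear receptor of exocrine pancreas, liver and gut, read 189, 229.7 and 228 in AsPC-1 and 10.35, 8.73 and 0.991 in BxPC-3, a difference of -4.67 ± 0.44 (SE, adjusted p = 7.08e-05). The lines did not overlap for these factors by the probe sets used. Dimmer probe sets of SOX2 above the filter differed by 1.47 and -0.31. ONECUT2 was lower in BxPC-3 as well, at -4.13 ± 0.31 (SE). GATA6, a factor used as a marker of the gland-like tumour type, was not called, with 605, 544 and 520.2 in BxPC-3 and 449.7, 627 and 597 in AsPC-1.

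HOX genes, which mark position along the body axis, gave calls in 1 direction. Of 22 tested among 36 listed, 0 were higher and 10 lower in BxPC-3. HOXB2 read 651, 217 and 263 in AsPC-1 and 19.6, 42.2 and 47.4 in BxPC-3, a difference of -3.18 ± 0.45 (SE, adjusted p = 0.000678). HOXB8, HOXB6 and HOXB4 had differences of -3.12 ± 0.45, -2.93 ± 0.36 and -2.62 ± 0.38 (SE). On the AsPC-1 array of passage 8, 8 of the 22 genes were at least 2-fold above both other arrays of the line. HOXB6 read 528, 178 and 238 in AsPC-1. Without that array, 11 were lower and the median moved from -0.92 to -1.01. The called share of this list, 45.5%, was near the 40.9% of all genes.

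Genes of cell adhesion and mesenchyme differed in both directions. Of 25 tested genes of a list that mixes cadherins, their regulators and mesenchymal markers, 16 were higher and 5 lower in BxPC-3, a called share of 84%. VIM, the intermediate filament of mesenchymal cells, read 6848, 6025 and 5814 in AsPC-1 and 82.8, 153 and 18.2 in BxPC-3, a difference of -6.57 ± 0.60 (SE, adjusted p = 6.27e-05). ZEB1, a repressor of CDH1, read 666, 358 and 391 in AsPC-1 and 4.37, 9.56 and 7.06 in BxPC-3, a difference of -5.55 ± 0.31 (SE, adjusted p = 4.24e-06). CDH3, the placental cadherin of basal epithelium, read 350.4, 466 and 303 in BxPC-3 and 3.60, 1.74 and 11.8 in AsPC-1, a difference of 5.58 ± 0.41 (SE, adjusted p = 1.81e-05). AsPC-1 held the larger signal of VIM and ZEB1, and BxPC-3 that of CDH3, with no overlap. GRHL2, a factor that maintains epithelial junctions, was 5.39 ± 0.21 (SE) higher in BxPC-3, and CDH1, the epithelial cadherin, read 3064, 3834 and 3612 in BxPC-3 and 691, 924 and 972 in AsPC-1. Members of the list that are known from mesenchyme were also higher in BxPC-3, among them COL1A1 (4.50), CDH11 (5.32), FN1 (4.08) and CDH2 (3.06), the last 3 of which were picked after their values were seen. Their other probe sets above the filter differed less in part, by 2.39, 0.08 and 0.76 for COL1A1 and 0.20 for CDH2. For CDH11 it was 2.99, and for FN1 4.13, 3.32, 0.04 and 4.16.

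Among junction genes, 9 of 28 were higher and 8 lower in BxPC-3, a called share of 60.7%. CLDN8, a tight junction claudin, and GJA1, the connexin of many gap junctions, were higher in BxPC-3 by 5.65 ± 0.29 and 5.01 ± 0.42 (SE), and PPL, a plakin of the cornified envelope, by 4.45 ± 0.25 (SE). DSC2, a desmosomal cadherin, had a difference of -3.24 ± 0.14 (SE). Of 28 integrin, laminin and basement membrane genes, 11 were higher and 7 lower, a called share of 64.3%. COL4A5 and COL4A6, neighbouring genes for chains of type IV collagen, were 6.95 ± 0.18 and 6.35 ± 0.42 (SE) higher in BxPC-3. NID2, which links laminin and collagen networks, read 711, 1047 and 595 in BxPC-3 and 3.96, 9.86 and 0.991 in AsPC-1, a difference of 6.75 ± 0.42 (SE, adjusted p = 6.98e-06). LAMA4, a laminin chain, read 389, 303 and 284 in AsPC-1 and 5.98, 6.95 and 4.39 in BxPC-3, a difference of -5.22 ± 0.23 (SE, adjusted p = 1.35e-06). BxPC-3 had the higher signals of the collagen chains and NID2, and AsPC-1 that of LAMA4. Dimmer probe sets without the mark for shared sequence had means of 14.8 in BxPC-3 and 7.85 in AsPC-1 for COL4A5 and of 9.52 and 18.9 for LAMA4, and were not called.

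Mucins and surface antigens differed in both directions. MUC13, a membrane mucin of the intestine, read 546, 2072 and 1899.8 in AsPC-1 and 17.8, 10.6 and 10.04 in BxPC-3, a difference of -6.39 ± 0.48 (SE, adjusted p = 2.04e-05). MUC17, of the same kind, had a difference of -6.45 ± 0.56 (SE). MUC4, a membrane mucin that is found in pancreatic tumours and not in normal duct, read 496, 616 and 1084 in BxPC-3 and 20.3, 12.7 and 16.2 in AsPC-1, a difference of 5.18 ± 0.30 (SE, adjusted p = 5.58e-06). Of 10 mucins tested, 4 were higher and 4 lower in BxPC-3, a called share of 80%. The tumour surface antigens had 10 higher and 11 lower of 27, a called share of 77.8%. CEACAM5, the carcinoembryonic antigen, read 3227, 3448 and 4807 in BxPC-3 and 107, 492 and 203 in AsPC-1, a difference of 4.07 ± 0.46 (SE, adjusted p = 0.000215). CLDN3, a claudin, read 279, 85.5 and 71.7 in AsPC-1 and 2.39, 11.9 and 2.57 in BxPC-3, a difference of -4.01 ± 0.58 (SE, adjusted p = 0.000781). LY6K was 4.03 ± 0.48 (SE) higher in BxPC-3. Enzymes that start, extend or cap mucin-type sugar chains gave 15 higher and 11 lower of 35, a called share of 74.3%. GALNT3, which places the first sugar of such a chain, was higher in BxPC-3 by 7.34 ± 0.25 (SE), and GCNT3, which branches the chain in mucus cells, had a difference of -6.51 ± 0.19 (SE).

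Secreted proteases and their inhibitors, which act on the matrix that invading cells cross, already differed without PMA, which the series used to induce invasion. Of 49 tested, 21 were higher and 16 lower in BxPC-3, 75.5% of the list. MMP1, the interstitial collagenase, read 1234, 2055 and 1266 in BxPC-3 and 15.1, 16.1 and 29.5 in AsPC-1, a difference of 6.04 ± 0.29 (SE, adjusted p = 1.86e-06). TIMP3, an inhibitor of metalloproteases bound to the matrix, read 1505, 1445 and 1456 in BxPC-3 and 5.86, 11.3 and 3.31 in AsPC-1, a difference of 7.31 ± 0.28 (SE, adjusted p = 6.73e-07). TMPRSS4, a membrane serine protease, read 1015, 978 and 976 in BxPC-3 and 1.21, 8.18 and 1.74 in AsPC-1, a difference of 7.35 ± 0.35 (SE, adjusted p = 1.91e-06). For all 3 the signal of AsPC-1 was below every BxPC-3 array. TFPI2, an inhibitor of serine proteases, was higher in BxPC-3 by 6.71 ± 0.38 (SE). MMP7, the metalloprotease of gland epithelium, lay the other way, at 5226, 4713 and 4686 in AsPC-1 and 106, 96.9 and 103 in BxPC-3, a difference of -5.54 ± 0.12 (SE, adjusted p = 7.55e-08).

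Of 42 chemokine and cytokine genes, 18 were higher and 10 lower in BxPC-3, a called share of 66.7%. IL1RL1, the receptor of IL-33, read 1450.3, 1559.8 and 1050.5 in BxPC-3 and 12.97, 1.24 and 7.25 in AsPC-1, a difference of 7.24 ± 0.44 (SE, adjusted p = 6.51e-06). IL1RN, the natural antagonist of the IL-1 receptor, read 1088, 928 and 1080.0 in BxPC-3 and 8.24, 28.7 and 44.9 in AsPC-1, a difference of 5.33 ± 0.46 (SE, adjusted p = 4.22e-05). CXCL11, a chemokine induced by interferon, and CXCL14, a chemokine of epithelia, were 5.37 ± 0.44 and 4.84 ± 0.39 (SE) higher. Interferon-stimulated genes gave 10 higher and 10 lower of 43, a called share of 46.5%, near that of all genes, and 15 higher and 12 lower without the AsPC-1 array of passage 8. TRIM22, MX2 and IFI27, products induced by interferon, were higher in BxPC-3 by 3.95, 3.50 and 3.46. IRF7, a factor that amplifies interferon responses, read 117, 74.1 and 67.6 in AsPC-1 and 1.96, 3.73 and 8.11 in BxPC-3, a difference of -3.59 ± 0.37 (SE, adjusted p = 0.00013). Of 25 antigen presentation genes, 4 were higher and 6 lower, a called share of 40%, which is near that of all genes. Without the AsPC-1 array of passage 8, 6 were higher and 7 lower. ERAP2, a peptidase that trims peptides for HLA class I, read 670.1, 988 and 579.7 in BxPC-3 and 17.2, 12.7 and 6.61 in AsPC-1, a difference of 5.65 ± 0.31 (SE, adjusted p = 4.38e-06). HLA-DMA, a loader of class II molecules, had a difference of -3.21 ± 0.22 (SE).

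Of 47 growth factors and receptor tyrosine kinases, 20 were higher and 10 lower in BxPC-3, a called share of 63.8%. FGFR3, a receptor of fibroblast growth factors, read 508, 595 and 1059 in BxPC-3 and 25.2, 25.1 and 30.7 in AsPC-1, a difference of 4.52 ± 0.27 (SE, adjusted p = 6.54e-06). FGFR2, another, read 308, 248 and 365 in BxPC-3 and 6.51, 9.61 and 0.936 in AsPC-1, a difference of 5.30 ± 0.42 (SE, adjusted p = 2.7e-05), while a probe set without the mark for shared sequence, with means of 26.5 in BxPC-3 and 35.9 in AsPC-1, was not called. FGF2, a ligand of that family, read 163, 229 and 220.0 in AsPC-1 and 1.99, 0.823 and 7.28 in BxPC-3, a difference of -5.14 ± 0.38 (SE, adjusted p = 1.97e-05). BxPC-3 had the larger receptor signals and AsPC-1 the larger ligand signal, by the probe sets used. PDGFC, a ligand of platelet-derived growth factor receptors, read 463, 496 and 519 in BxPC-3 and 5.65, 0.417 and 0.702 in AsPC-1, a difference of 6.69 ± 0.36 (SE, adjusted p = 3.63e-06).

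In the TGF-beta and BMP pathway, 16 of 37 tested genes were higher and 11 lower in BxPC-3, a called share of 73%. BMP4, a BMP ligand, read 1023, 319 and 276 in AsPC-1 and 4.64, 1.75 and 6.77 in BxPC-3, a difference of -6.00 ± 0.50 (SE, adjusted p = 3.62e-05). INHBA, the subunit of activin A, read 123, 238 and 64.0 in BxPC-3 and 5.97, 0.170 and 2.16 in AsPC-1, a difference of 4.59 ± 0.53 (SE, adjusted p = 0.000235). FST, the secreted activin antagonist, read 2094, 2512 and 1361 in BxPC-3 and 30.4, 34.1 and 23.4 in AsPC-1, a difference of 5.92 ± 0.25 (SE, adjusted p = 9.21e-07). The BMP ligand was higher in AsPC-1, and an activin subunit and its antagonist were both higher in BxPC-3. BMPR1B, a BMP receptor, was 4.76 ± 0.39 (SE) higher in BxPC-3. Of 45 WNT and Notch genes, 16 were higher and 9 lower, a called share of 55.6%. LGR5, the R-spondin receptor of intestinal stem cells, read 1130.2, 439 and 559 in AsPC-1 and 5.01, 2.64 and 0.384 in BxPC-3, a difference of -6.94 ± 0.42 (SE, adjusted p = 6.54e-06). DLL1, a Notch ligand, read 83.9, 110.0 and 85.4 in BxPC-3 and 0.311, 0.787 and 0.841 in AsPC-1, a difference of 4.71 ± 0.28 (SE, adjusted p = 6.47e-06). WNT9A and LEF1, a WNT ligand and a nuclear effector, were higher in BxPC-3 by 3.20 ± 0.37 and 3.02 ± 0.28 (SE).

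Cell cycle genes differed little in size but mostly in 1 direction. Of 48 tested, 20 were higher and 1 lower in BxPC-3, a called share of 43.8%, near the 40.9% of all genes, with a median difference of 0.47. CDK6, a kinase of the G1 phase, read 1721, 1883 and 1668 in BxPC-3 and 339, 339 and 352 in AsPC-1, a difference of 2.35 ± 0.12 (SE, adjusted p = 2.5e-06). Its 3 brightest probe sets differed by 2.35, 2.36 and 2.51, and the median over all of its probe sets, several of them dim, by 0.05. GINS2 and CCNE2, which act at the start of DNA replication, were higher by 1.57 ± 0.26 and 1.51 ± 0.41 (SE). A dim probe set of GINS2, with means of 4.77 in BxPC-3 and 16.9 in AsPC-1, was called the other way, at -1.35, and CCNE2 lost its call when any single BxPC-3 array was left out. PLK1, a kinase of mitosis, was the member that was lower in BxPC-3, at -1.06 ± 0.36 (SE), and its call was lost in the same cases and some others. Without the AsPC-1 array of passage 8, 26 of the 48 genes were higher and 2 lower.

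Metabolic genes differed in single members. In the hypoxia and glycolysis list, 8 of 32 were higher and 5 lower, a called share of 40.6%, near that of all genes, although the list held LDHB. Without the AsPC-1 array of passage 8, 9 were higher and 8 lower. PFKM and PFKP, the muscle and platelet types of phosphofructokinase, had differences of -1.33 ± 0.13 and -1.23 ± 0.15 (SE). Of 38 lipid and sterol genes, 17 were higher and 8 lower, a called share of 65.8%. PLA2G4A, which frees arachidonic acid from membranes for cyclooxygenases, read 725, 903 and 887 in BxPC-3 and 3.18, 5.07 and 2.96 in AsPC-1, a difference of 6.97 ± 0.21 (SE, adjusted p = 2.4e-07). PLA2G4A and PTGS2, which act in succession in prostaglandin synthesis, were both near background in AsPC-1. The lipid transporter ABCA1 was higher in BxPC-3 by 3.68 ± 0.53 (SE), and its relative ABCG1 had a difference of -4.85 ± 0.29 (SE).

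Of 45 genes of xenobiotic metabolism, 17 were higher and 8 lower in BxPC-3, a called share of 55.6%. ADH1C, an alcohol dehydrogenase, read 423, 350.9 and 617 in BxPC-3 and 0.333, 2.39 and 0.862 in AsPC-1, a difference of 6.79 ± 0.30 (SE, adjusted p = 1.29e-06). AKR1B10, an aldo-keto reductase that NRF2 can induce, and CYP24A1, which inactivates vitamin D, were higher by 4.48 ± 0.64 and 4.59 ± 0.38 (SE). Among 33 genes of drug uptake, efflux and gemcitabine metabolism, 9 were higher and 13 lower, a called share of 66.7%. CDA, which inactivates gemcitabine, read 613, 636 and 726 in AsPC-1 and 34.5, 34.4 and 8.04 in BxPC-3, a difference of -4.73 ± 0.44 (SE, adjusted p = 6.6e-05). ABCG2, a drug efflux pump, read 1478, 1179 and 1019 in AsPC-1 and 9.66, 16.4 and 13.96 in BxPC-3, a difference of -6.24 ± 0.22 (SE, adjusted p = 4.92e-07). SLCO1B3, an organic anion transporter, read 698, 632 and 644 in BxPC-3 and 4.84, 6.06 and 1.54 in AsPC-1, a difference of 6.59 ± 0.28 (SE, adjusted p = 9.88e-07). AsPC-1 had the larger signals of CDA and ABCG2, and BxPC-3 that of SLCO1B3.

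Germline and imprinted genes were mostly BxPC-3 genes where they differed. Only 12 of 34 cancer-testis genes passed the filter, with 6 higher and 0 lower in BxPC-3, a called share of 50%. MAGEA6, a melanoma-associated antigen, read 2657, 2659.7 and 2435 in BxPC-3 and 4.17, 4.82 and 7.03 in AsPC-1, a difference of 8.29 ± 0.18 (SE, adjusted p = 7.55e-08). MAGEA1 and MAGEA12 were higher by 6.37 ± 0.26 and 5.41 ± 0.34 (SE), and near-identical copies in this family can share probes. Of 15 imprinted genes, 8 were higher and 2 lower, a called share of 66.7%. NAP1L5 and PEG10, both expressed from the paternal copy in many tissues, were higher by 4.60 ± 0.36 and 3.25 ± 0.26 (SE).

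The receptors of the phorbol ester were compared because the lines were later exposed to it. Of 21 genes of protein kinase C and other phorbol ester receptors and substrates, 2 were higher and 5 lower, a called share of 33.3% beside 40.9% of all genes. Without the AsPC-1 array of passage 8, 5 were higher and 6 lower, which is 52.4% of the list. PRKCH, the eta form that is typical of squamous epithelium, read 324, 383 and 359 in BxPC-3 and 5.25, 12.6 and 13.3 in AsPC-1, a difference of 4.80 ± 0.29 (SE, adjusted p = 6.37e-06). MARCKSL1, a substrate of the kinase, and UNC13B, a vesicle protein with a phorbol ester site, had differences of -2.75 ± 0.29 and -2.82 ± 0.18 (SE). Among 30 apoptosis regulators, 6 were higher and 9 lower, a called share of 50% beside 40.9% of all genes. BCL2, an inhibitor of cell death, read 82.1, 82.0 and 96.7 in BxPC-3 and 6.93, 0.279 and 3.43 in AsPC-1, a difference of 3.92 ± 0.41 (SE, adjusted p = 0.000133). CFLAR, an inhibitor of caspase activation at death receptors, read 1679, 2236 and 2431 in AsPC-1 and 180.0, 166 and 168 in BxPC-3, a difference of -3.59 ± 0.16 (SE, adjusted p = 1.47e-06). CASP1, the protease that matures IL-1, was 5.32 ± 0.29 (SE) higher in BxPC-3. The only other probe set of BCL2 above the filter was dim. It had means of 7.05 in BxPC-3 and 11 in AsPC-1 and differed by -0.55. Metallothioneins and S100 genes gave 9 higher and 2 lower of 15 (73.3%), among them S100A14 (3.00), S100P (2.53) and the metal-binding MT1X (2.16) and MT2A (2.03).

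Genes that lie side by side on a chromosome were compared next, because homozygous deletions around CDKN2A and SMAD4 are known in pancreatic tumours. At the CDKN2A locus on chromosome 9, signal was near background in BxPC-3 and present in AsPC-1. CDKN2A read 18.9, 11.98 and 12.2 in BxPC-3 and 2988, 1238 and 1283 in AsPC-1, a difference of -6.62 ± 0.34 (SE, adjusted p = 3.03e-06). CDKN2B, a related inhibitor, read 1.70, 0.110 and 0.756 in BxPC-3 and 632, 308 and 289 in AsPC-1, a difference of -6.67 ± 0.35 (SE, adjusted p = 3.03e-06). MTAP, a purine salvage enzyme, read 1.23, 0.970 and 1.18 in BxPC-3 and 135, 229 and 219 in AsPC-1, a difference of -5.54 ± 0.29 (SE, adjusted p = 3e-06). On every AsPC-1 array these 3 genes were above 100, and on the BxPC-3 arrays each lay far below its AsPC-1 level, MTAP and CDKN2B within background, while genes beyond this stretch had signal again. TUSC1, the next tested gene on one side, read 245, 261 and 343 in BxPC-3 and 4.42, 10.2 and 1.45 in AsPC-1. On the other side KLHL9 was still low, at 0.703, 6.57 and 1.34 in BxPC-3 and 267, 267 and 288 in AsPC-1, and MLLT3, 4 tested genes further, read 24.9, 16.2 and 36.7 in BxPC-3 and 7.38, 1.67 and 1.09 in AsPC-1.

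On chromosome 18 the same was seen around SMAD4. SMAD4 read 0.280, 0.331 and 4.60 in BxPC-3 and 189, 156 and 161 in AsPC-1, a difference of -5.29 ± 0.37 (SE, adjusted p = 1.36e-05). MEX3C, an RNA-binding ubiquitin ligase and the next tested gene, read 0.217, 0.298 and 0.0884 in BxPC-3 and 311, 223 and 239.7 in AsPC-1, a difference of -6.33 ± 0.25 (SE, adjusted p = 7.4e-07). ME2, a mitochondrial malic enzyme, read 5.72, 4.71 and 4.08 in BxPC-3 and 214, 269 and 305 in AsPC-1, a difference of -5.07 ± 0.23 (SE, adjusted p = 1.61e-06). All of them were near background in BxPC-3. Genes on either side of the stretch had signal, with SKA1 at 78.2, 64.7 and 63.1 and MBD2 at 1215, 1243 and 1172. In the list of genes at both loci, 7 of 10 tested were lower and 1, SMAD2, was higher in BxPC-3. The called share was 80%, beside 40.9% of all genes called and 19.4% called lower. The list was drawn up for loci known to be deleted in this tumour, so the share is only a description.

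Runs of low genes were also seen on chromosomes 10 and 21, of which the first was picked after its values were seen. PSAP, the precursor of the saposins that lysosomal enzymes need, and ANAPC16, a subunit of the anaphase-promoting complex, were both among the 15 lowest genes of BxPC-3. PSAP read 13.96, 7.09 and 15.7 in BxPC-3 and 3215, 2841 and 2394 in AsPC-1, a difference of -7.57 ± 0.25 (SE, adjusted p = 3.36e-07). ANAPC16 read 0.520, 6.70 and 1.24 in BxPC-3 and 1794, 2142 and 2096 in AsPC-1, a difference of -8.58 ± 0.36 (SE, adjusted p = 8.87e-07). They lie within 6 successive tested genes of chromosome 10, and VSIR, CHST3 and ASCC1 of the same stretch were lower as well. ASCC1, a subunit of a transcription coactivator, read 4.88, 11.6 and 8.49 in BxPC-3 and 332, 279 and 288 in AsPC-1, a difference of -4.78 ± 0.27 (SE, adjusted p = 4.38e-06). The genes on either side, SLC29A3 and DDIT4, had signal in BxPC-3, at 82.6, 82.3 and 124 and 936, 1071 and 1432. The sixth gene of the stretch, SPOCK2, was dim in both lines. The other probe set of PSAP pointed the same way, and 1 further probe set of ANAPC16, marked as cross-hybridising, did not.

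On chromosome 21, RIPK4, PRDM15, C2CD2, ZBTB21 and ABCG1 were near background in BxPC-3 and present in AsPC-1. RIPK4, a kinase of epidermal differentiation, read 4.80, 11.8 and 2.95 in BxPC-3 and 632, 421 and 477 in AsPC-1, a difference of -5.84 ± 0.35 (SE, adjusted p = 6.04e-06). C2CD2 read 5.91, 0.451 and 1.10 in BxPC-3 and 241, 207 and 226 in AsPC-1, a difference of -5.50 ± 0.37 (SE, adjusted p = 1.09e-05). The run of 15 neighbours that holds these genes had the lowest median of all runs, at -2.84, where the quartiles over 14146 overlapping runs were -0.29 and 0.26. The run was not low throughout. BACE2 and MX2 within it had signal in BxPC-3, at 406, 435 and 425 and at 248, 299 and 236. MX2 was called higher in BxPC-3, by 3.50. Beyond ABCG1, TFF2 read 91.9, 162 and 117 in BxPC-3, where it was called lower, and TFF1 183, 329.8 and 182. A run on chromosome 7 followed with a median of -1.97. There both lines had signal, as in ARPC1A, a subunit of the ARP2/3 actin complex, at 1073, 1238 and 944 in BxPC-3 and 6708, 7956 and 6886 in AsPC-1, a difference of -2.73 ± 0.13 (SE, adjusted p = 2.11e-06). SMURF1, a ubiquitin ligase of the BMP pathway, read 213, 246 and 216 in BxPC-3 and 2322, 2279 and 2156 in AsPC-1. PDAP1, next but one to ARPC1A, was higher in BxPC-3, with 561, 649 and 577 against 269, 135 and 201. The highest run was on chromosome 1, from PTGFRN to ZNF697, with a median of 2.10. DNA copy number was not measured, so absent DNA and absent expression cannot be told apart here.

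**Figure D4:**
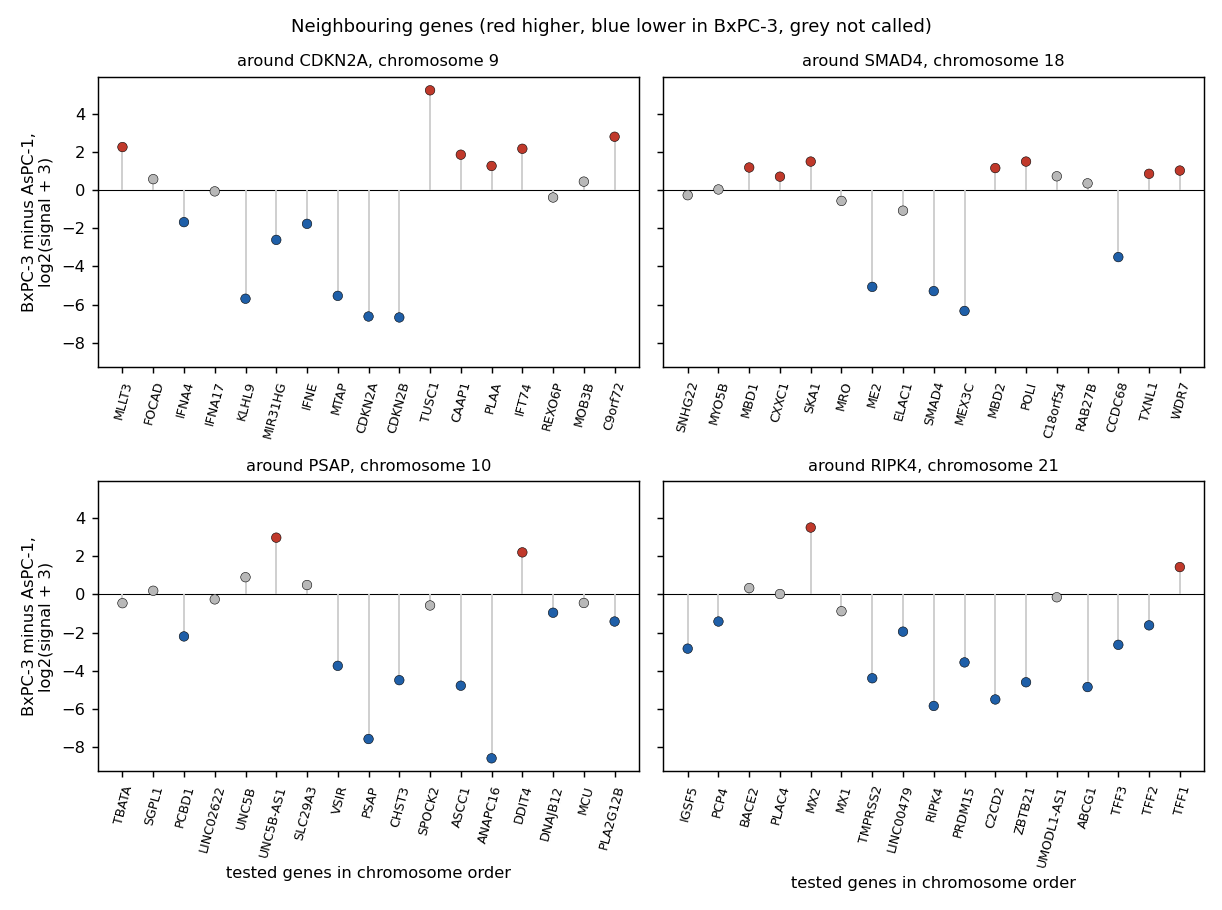
Difference between the lines (BxPC-3 minus AsPC-1, log2 of signal + 3) for tested genes in chromosome order, from 8 genes before to 8 after CDKN2A, SMAD4, PSAP and RIPK4. Each point is 1 gene, with the colour giving the call; low genes stand in a run between neighbours near or above 0 in the CDKN2A, SMAD4 and PSAP panels, and in the RIPK4 panel ABCG1 follows at -4.85.

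The 6 arrays of PMA-exposed cultures did not enter the tests above, although they were counted in the choice of probe sets. They were read for the same genes. Their lines differed in 46.4% of the tested genes by groups that did not overlap, and limma over all 12 arrays called 37.2%. Of the 3114 genes higher in untreated BxPC-3, 96.4% had the same sign after PMA and 2346 (75.3%) had groups that did not overlap in that direction. Of the 2821 lower genes, 93.9% had the same sign and 2093 (74.2%) did not overlap in that direction. The lines were apart the opposite way in 14 of the higher and 36 of the lower genes. Among the genes at least 16-fold apart, 247 of 249 higher and 151 of 152 lower genes were apart in the same direction after PMA. The exposed cultures come from the same passages as the untreated ones, so this is a second reading of the same 2 lines.

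A difference between the lines that itself differed between untreated and exposed cultures was called in 75 genes (0.517%), by the interaction term of the same fit. This number rested on single arrays. The AsPC-1 array of passage 8 after PMA stood apart, and without it 755 genes were called, among them all 75. Leaving out any other array gave between 9 and 63. With the passage shared by an untreated and an exposed culture as a replicate block, 123 were called, of which 66 were among the 75. The 3′ to 5′ ratio of ACTB also lay apart within BxPC-3, at 2.556 to 4.145 untreated and 1.845 to 2.019 after PMA. In AsPC-1 it overlapped, at 2.215 to 2.268 untreated and 1.794 to 2.316 after PMA. The part of RNA quality in the interaction was not tested. MMP1 had a difference of 6.04 untreated and 1.75 after PMA, an interaction of 4.30 ± 0.78 (SE, adjusted p = 0.0329). In AsPC-1 its signal was 2769, 550.2 and 436 after PMA, against 15.1, 16.1 and 29.5 before, and in BxPC-3 it was 4072, 1966 and 3179. FST had a difference of 5.92 untreated and 8.05 after PMA (interaction -2.13 ± 0.40, adjusted p = 0.0382). PTGS2 also moved further apart, from 8.03 to 10.35 (interaction -2.32 ± 0.46, adjusted p = 0.0444). OCLN, a tight junction protein, turned its direction, from -2.23 untreated to 0.94 after PMA (interaction -3.16 ± 0.32, adjusted p = 0.000739). The untreated arrays read 189.8, 183 and 226 in BxPC-3 and 718, 1135 and 1025 in AsPC-1, and the exposed ones 1616, 1730.1 and 1622 and 601, 1007 and 1064. OCLN was picked after its values were seen and kept its call in all settings tried. Of 18 settings, the call was lost in 9 for MMP1, 13 for FST and 14 for PTGS2, with adjusted p up to 0.116 for MMP1, 0.128 for FST and 0.229 for PTGS2. Of the 75 genes, 61 were called in the untreated lines, and in 37 of these the difference was smaller after PMA.

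**Figure D5:**
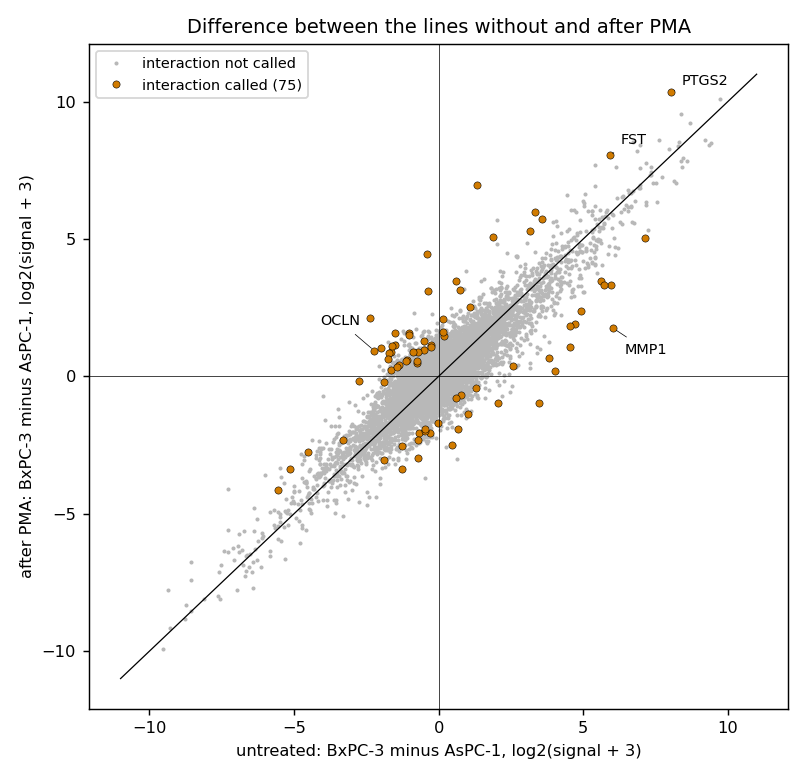
Difference between the lines in the 6 PMA-exposed arrays (vertical) against the 6 untreated arrays (horizontal), both BxPC-3 minus AsPC-1 on log2(signal + 3), for all tested genes. The 75 genes with a called interaction are coloured, the diagonal marks equal differences, and most genes lie near it.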

How the data were processed

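The authors' deposited table holds MAS5 signal intensity per probe set, per the submitters' processing notes; scanner images and detection calls were not used here. Of 54675 probe sets, 41091 carried 1 gene symbol in the platform annotation, 1801 several, 11721 none and 62 were controls, which gave 19775 genes. For each gene the probe set with the highest mean over the 12 arrays was kept. Values were taken as log2(signal + 3), with no further normalization. Genes above the array's 40th percentile (a signal of 8.18 to 9.52) on at least 3 of the 6 untreated arrays were tested.

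limma 3.58.1 (R 4.3.3) fitted the 6 untreated arrays with a mean for each line and an intensity trend in the variance, leaving 4 residual degrees of freedom and adding 4.38 from all genes. The test was two-sided, with Benjamini-Hochberg adjustment over all genes and a threshold of 0.05. Differences against the PMA arrays came from a fit over all 12. An exact permutation test of 3 against 3 cannot go below 0.1 and was not used. In data simulated for the untreated comparison, 200 of 14512 genes were changed in each of 5 rounds, around the mean of both lines. Of those changed 2-fold 26.4% were recovered, and of those changed 4-fold 68.2%, with 4.61% of calls false. In the data themselves 40.9% of genes were called, a far larger share, so these rates need not hold for them. The arrays carry no read depth; their number limits the precision.

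Named genes are the 15 largest differences in each direction and up to 4 called and 2 uncalled members of each list. The cell type markers and neighbours on the chromosome are named too. Others were picked after their values were seen, and not all of them are marked so in the text. Among those without a mark are MMP7, KLK6, KLK7, KLK10, GKN1, VSIG1, VSIG2 and CTSE. The genes, lists and members were chosen with earlier results of these data known. Lists are described by counts and medians without a test. Promoters are RefSeq windows of the first listed start of each gene. BxPC-3 and AsPC-1 replicates with the same number share only that number: their deviations from the line means correlated with r of -0.09, 0.01 and 0.005. Alternatives were other scalings, constants, filters, probe set summaries, variance models, array sets, a replicate block and leaving out each array. Figures were drawn with matplotlib 3.10.9.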

Additional observations from a re-analysis of the deposited data

Results flagged for a closer look

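Among the genes named above, 10 had a difference between BxPC-3 and AsPC-1 that itself differed between untreated and PMA-exposed cultures, by the interaction term of limma over 12 arrays (adjusted p under 0.05). The interaction is the untreated difference minus the difference after PMA. It was -3.16 for OCLN, -2.32 for PTGS2, -2.13 for FST, -2.59 for MARCKSL1, -1.41 for MMP7 and -0.99 for SMURF1. It was 4.30 for MMP1, 2.79 for DLL1, 2.39 for SOX2 and 2.11 for SERPINB13. For MMP1, DLL1, SOX2 and SERPINB13 the lead of BxPC-3 was smaller after PMA. SOX2 read 58.1, 111 and 54.5 in exposed BxPC-3, against 337, 344 and 400.1 untreated, and 3.63, 3.36 and 6.39 in exposed AsPC-1. DLL1, the Notch ligand, read 51.7, 36.1 and 26.5 in exposed BxPC-3, against 83.9, 110.0 and 85.4 untreated, and 2.69, 14.6 and 8.69 in exposed AsPC-1. For MARCKSL1, MMP7 and SMURF1, all higher in untreated AsPC-1, the gap was narrower after PMA, with MMP7 at -4.13 and SMURF1 at -2.31. For MARCKSL1 the interaction of -2.59 was nearly as large as its untreated difference of -2.75. Of these 10, only OCLN kept its call in every setting tried, including the arrays left out. The ACTB ratio did not overlap between untreated and exposed BxPC-3 arrays, and the part of RNA quality in these interactions was not tested.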

How the results depend on the processing

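The number of genes called between the untreated lines stayed within 1.5 times of 5935 in all settings but 1. A 2-fold minimum on top of the threshold left 3708 genes, 1925 higher and 1783 lower in BxPC-3. Leaving out single arrays gave 4597 to 7269 calls, 2375 to 3973 higher and 2222 to 3296 lower, the largest without the AsPC-1 array of passage 8. The replicate block gave 5378 calls (2825 higher and 2553 lower). Median centring turned the split to 2837 higher and 2996 lower, and moved the median of all genes from -0.05 to -0.10. No called gene changed sign in these settings. With other probe set summaries 157 (median over probe sets) and 148 (probe sets without the mark for shared sequence) of the called genes did.

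Of 165 named genes with a call, 153 kept it with their direction in every setting that gave them a value. The call was lost in at least 1 setting for 9, and 3 turned. Many of the named genes had no value in the setting without the marked probe sets, so their calls were not tried there. Among the genes that turned, GINS2 read 0 and MBD2 -1.02 with the median over probe sets, and GINS2 -1.35 and FGFR2 -0.36 without the marked probe sets. Uncalled genes near 0 changed sign too. GATA6 was -0.04 with median centring, -0.02 with quantile normalization and between -0.14 and 0.10 with an array left out. GAPDH was 0.01 with quantile normalization, and IDI1 was -0.33 without the marked probe sets. The cause was not tested.

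Settings for the interaction with PMA were added after the data were seen. Against 75 calls, median centring gave 40, a constant of 16 gave 116 and the replicate block by passage 123. Leaving out 1 array gave 9 to 755, the highest without the AsPC-1 PMA array of passage 8. Signals under about 9 had no reliable order, so large folds are only approximate.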

Other observations

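The untreated AsPC-1 array of passage 8 differed from passages 10 and 12 in part of several gene lists. Over all tested genes, 5.49% were at least 2-fold above both other arrays of the line on it and 4.12% below. Of 38 lipid and sterol genes, 10 were at least 2-fold below both other arrays and 1 above. HMGCS1, an enzyme of cholesterol synthesis, read 145, 1160.1 and 1085 in AsPC-1, passage 8 first, and 2125, 1994 and 2539.6 in BxPC-3. IDI1, which acts later in the same path, read 380.3, 1949 and 2001 in AsPC-1 and 1659, 2232 and 2262 in BxPC-3. Passage 8 was the lowest AsPC-1 array for both, and neither gene was called between the lines. CCL20, a chemokine of epithelia, read 2.78, 530.3 and 343 in AsPC-1 and 31.4, 25.5 and 42.7 in BxPC-3 and was not called either. Of 41 gastric and intestinal genes, 10 were at least 2-fold below both other arrays on it and 1 above, while 8 of 22 HOX genes were above and 2 below. On the other untreated arrays of both lines, at most 3 members of any of these 3 lists stood above both partners by that measure, and at most 3 below. Other lists moved too. Of 45 genes of xenobiotic metabolism, 9 were below and 4 above on the AsPC-1 array of passage 8. Of 42 chemokine and cytokine genes, 7 were below both partners on the BxPC-3 array of passage 11. The genes and lists given here were picked after their values were seen. What set the AsPC-1 array of passage 8 apart was not tested.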
